A study of Mus musculus with 8 samples.

Results

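The mitochondrial ribosomal protein genes are the 77 genes whose symbol begins with Mrpl or Mrps followed by a number, 48 for the large and 29 for the small subunit. Membership was set by the symbol alone, among the 23238 symbols in the deposited count files, although the gene family itself was chosen with earlier results of these data known. All 77 lie among the 13347 genes with enough reads to test, and none had a count of 0 in any of the 8 libraries. The lowest count was 6 reads, and the median count per gene and library was 167.5.

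Mitochondria carry their own ribosome, which translates the few respiratory chain subunits that the mitochondrial genome still encodes. Its RNAs come from mitochondrial DNA, but all of its proteins are encoded in the nucleus, made in the cytosol and imported. Many descend from bacterial ribosomal proteins and the others were added during the evolution of mitochondria. In the uterus, estradiol drives growth, and autophagy, which needs the Atg7 protein, can degrade mitochondria.

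The RNA was labelled as uterine stromal cells of ovariectomized (OVX) mice of strain C57BL/6-ICR. The Atg7f/f mice carry a floxed Atg7 gene with no Cre and served as the control. In the Atg7d/d mice (Atg7f/f;Amhr2cre), the Amhr2 promoter drives Cre in the uterine mesenchyme, and no group has Cre with an intact Atg7 gene. Mice of each genotype received oil or estradiol (E2), which gives 4 groups of 2 libraries. The labels give neither the dose and time of estradiol, nor the age, nor how the stromal cells were isolated. They do not say whether a group's libraries are from different mice, and the p-values cover the spread between the libraries at hand, which may be technical.

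Libraries held 5458390 to 6951080 counts. Atg7 checks nothing here: its level was 3.47 and 5.67 CPM (counts scaled to a common library size) in the Atg7f/f oil libraries, 2.79 and 3.53 in Atg7f/f estradiol, 3.32 and 5.20 in Atg7d/d oil, and 4.14 and 3.56 in Atg7d/d estradiol. Per the labels the kit was Quant-Seq, whose reads come from the 3′ end of transcripts, but the catalogue number they give may belong to another kit. Where the reads lie in a transcript is thus not certain, and which exons are removed is not stated. The genotype therefore rests on the labels. Fibroblast markers were present, and of 10 epithelial markers (Epcam, Cdh1, keratins, claudins and others) none was at 0 throughout. Summed, the epithelial markers stood at 4693 to 17830 CPM in the oil libraries, beside 1984 to 2938 CPM for 10 fibroblast markers. With estradiol they stood at 1259 to 2814 CPM, beside 5891 to 8591 CPM. The marker sums thus differed by treatment, so the estradiol comparisons cannot separate a change within cells from a change in cell make-up. In bulk RNA, fewer cells of a type and less RNA per cell cannot be told apart.

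Mitochondrial ribosomal protein transcripts were more abundant in the estradiol libraries of both genotypes. Summed over the 77 genes, the level was 2229 and 2063 CPM in the Atg7f/f oil libraries and 3525 and 3970 CPM after estradiol. In Atg7d/d it was 2226 and 2094 CPM with oil and 3633 and 3843 CPM after estradiol. Every estradiol library lay above every oil library, and the genotypes overlapped within each treatment. The ratio of means, estradiol over oil, was 1.75 in Atg7f/f and 1.73 in Atg7d/d. As a share of all counts, the genes took 0.204% to 0.217% in the oil libraries and 0.363% to 0.394% in the estradiol libraries.

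The summed level differed between subunits. For the large subunit it was 1272 and 1216 CPM in Atg7f/f oil, 2312 and 2606 in Atg7f/f estradiol, 1292 and 1265 in Atg7d/d oil, and 2394 and 2504 in Atg7d/d estradiol. For the small subunit it was 957 and 847 CPM in Atg7f/f oil, 1213 and 1363 in Atg7f/f estradiol, 934 and 829 in Atg7d/d oil, and 1239 and 1339 in Atg7d/d estradiol. The ratio of means, estradiol over oil, was 1.98 in Atg7f/f and 1.91 in Atg7d/d for the large subunit, and 1.43 and 1.46 for the small. Mrps6 alone held much of the small subunit's reads and did not share the direction of its sum. Without Mrps6 the small subunit's ratios were 1.75 and 1.76. With Mrps6 included, the sum of large over small went from 1.33 and 1.44 in Atg7f/f oil to 1.91 and 1.91 in Atg7f/f estradiol. In Atg7d/d it went from 1.38 and 1.53 with oil to 1.93 and 1.87 with estradiol. This ratio was not computed without Mrps6, whose high level in oil lowers it there. These sums are descriptions and carry no test.

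**Figure D1:**
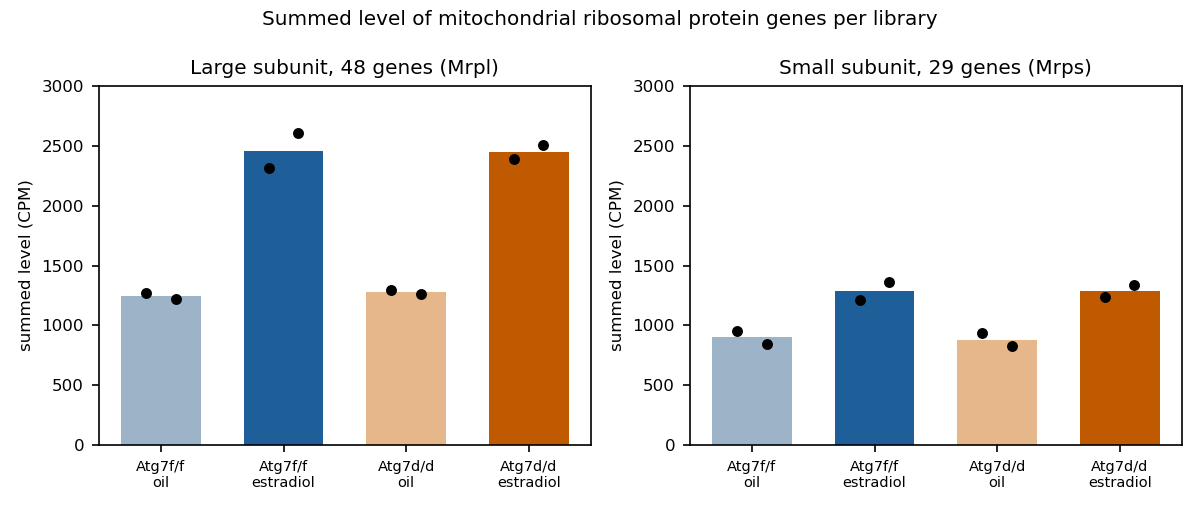
Summed level in CPM (vertical axis) of the 48 Mrpl genes (left) and the 29 Mrps genes (right) in each group; bars are means of 2 libraries and points are the libraries. Estradiol libraries lie above oil libraries in both panels, by a ratio of 1.98 (large) and 1.43 (small) in Atg7f/f, and the genotypes lie at like heights.

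In Atg7f/f mice, 55 of the 77 genes rose with estradiol and 0 fell in edgeR's quasi-likelihood test (Benjamini-Hochberg adjusted p below 0.05 over all tested genes). Over all 13347 genes, 15.8% rose and 14% fell, so 71.4% of the members against 15.8% of all genes rose. The median log2 fold change was 0.99 over the members and 0.01 over all genes, and 36 members rose at least 2-fold. By subunit, 39 of 48 large-subunit genes (median 0.98) and 16 of 29 small-subunit genes (median 1.07) rose. Both libraries with estradiol lay above both with oil for 71 members and below for 1, Mrps6. The shares of all tested genes with a 2-fold rise or with such a split of the libraries were not counted, so these 2 counts only describe the members. The count of members that rose was 34 without Atg7f/f estradiol library 1 and 29 without library 2, where the whole table also gave fewer calls (986 and 1132 genes up).

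In Atg7d/d mice, 46 members rose and 0 fell, beside 13.1% and 11.2% of all genes. The median log2 fold change was 0.93, with 32 large-subunit genes (median 0.92) and 14 small-subunit genes (median 0.97) up. At least a 2-fold rise was called for 33 members, and the share of all tested genes was again not counted. The members' median was 1.03 without Atg7d/d estradiol library 1, 0.89 without estradiol library 2, 0.95 without oil library 1 and 0.95 without oil library 2. In each of these fits fewer members passed, and fewer genes of the whole table passed too. Averaged over both genotypes, 65 members rose (45 large, 20 small) and 0 fell, where 24.1% of all genes rose and 22.2% fell. All 4 estradiol libraries lay above all 4 oil libraries for 65 members (24.3% of all tested genes), a set that holds Mrps2 and lacks Mrps5 where the 65 called do the reverse.

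The genotypes share no library, and 44 members rose in both, which is 80% of the Atg7f/f calls and 95.7% of the Atg7d/d calls. The fold changes had the same sign in 76 members, and the median absolute difference between genotypes was 0.16 on the log2 scale. Across the 77 members the fold changes of the 2 genotypes had a Pearson r of 0.885 and a Spearman rho of 0.857. The members share the libraries, so this is a description with no test. The overlap of calls, the shared signs and the correlations were not computed over all tested genes, so they cannot be called particular to the members. Over all tested genes, 0 passed the interaction test. The call was made in Atg7f/f alone for 11 members (Mrpl4, Mrpl13, Mrpl16, Mrpl23, Mrpl28, Mrpl30, Mrpl40, Mrpl48, Mrpl49, Mrps10 and Mrps26) and in Atg7d/d alone for Mrpl37 and Mrpl38. None of these 13 passed the interaction test of the difference between genotypes.

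**Figure D2:**
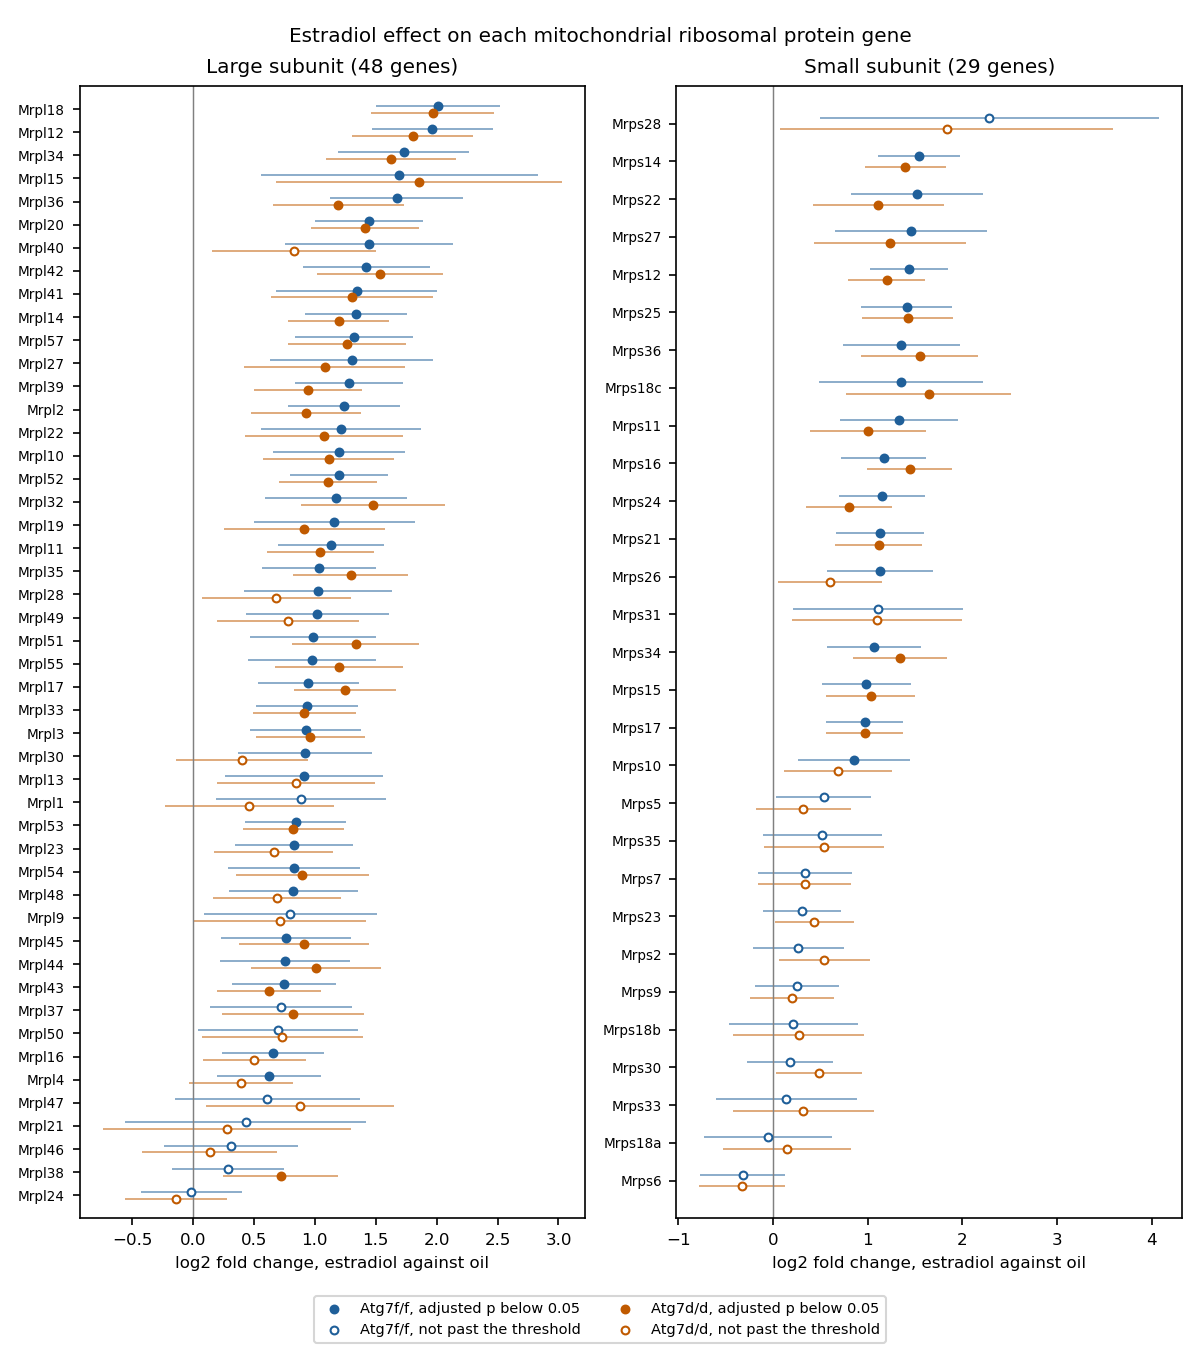
Log2 fold change of estradiol against oil (horizontal axis) for each of the 48 large-subunit (left) and 29 small-subunit (right) genes, in Atg7f/f (blue) and Atg7d/d (orange), with 95% confidence intervals; filled points passed the adjusted p threshold of 0.05. Nearly all points lie right of 0, the topmost named large-subunit genes are Mrpl18 and Mrpl12, and Mrps6 lies lowest.

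The strongest large-subunit calls were Mrpl12 and Mrpl18. Mrpl12 encodes the stalk protein of the ribosome and also binds the mitochondrial RNA polymerase. Its level was 42.8 and 30.8 CPM in Atg7f/f oil, 124 and 164 in Atg7f/f estradiol, 37.9 and 39.4 in Atg7d/d oil, and 129 and 141 in Atg7d/d estradiol. The lowest estradiol library was well above the highest oil library. The log2 fold change was 1.96 ± 0.22 (SE) in Atg7f/f, with an adjusted p of 8.98e-04, and 1.8 ± 0.22 in Atg7d/d, with an adjusted p of 0.00162. Mrpl18, the relative of a bacterial protein that binds 5S ribosomal RNA, stood at 13.3 and 10.1 CPM in Atg7f/f oil, 43.6 and 50.9 in Atg7f/f estradiol, 14.7 and 13.2 in Atg7d/d oil, and 49.1 and 60.2 in Atg7d/d estradiol. Again no estradiol library overlapped an oil library. The change was 2.01 ± 0.23 (adjusted p 8.98e-04) and 1.97 ± 0.22 (adjusted p 0.00137), and in Atg7d/d this was the largest among the 77.

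Mrpl20, whose bacterial counterpart binds the large ribosomal RNA early in assembly, was at 27.9 and 29.9 CPM in Atg7f/f oil, 72.2 and 85.4 in Atg7f/f estradiol, 35.1 and 32 in Atg7d/d oil, and 99.5 and 79.1 in Atg7d/d estradiol. It changed by 1.45 ± 0.20 in Atg7f/f and 1.41 ± 0.20 in Atg7d/d (adjusted p 0.0017 and 0.00243). Mrpl34 was at 8.99 and 7.79 CPM, then 23.9 and 32, in Atg7f/f, and at 9.64 and 9.45 CPM, then 28.6 and 30.4, in Atg7d/d. Its changes were 1.73 ± 0.24 and 1.63 ± 0.24. Mrpl14, which lies at the face between the subunits, went from 22.4 and 28.0 CPM to 62.7 and 64.9 in Atg7f/f, and from 30.2 and 31.8 to 71.4 and 70.7 in Atg7d/d. Mrpl17 was among the 5 strongest large-subunit calls in Atg7d/d, at 48.7 and 40.3 CPM with oil and 109 and 103 with estradiol (1.25 ± 0.19). In each of these genes both oil libraries lay below both estradiol libraries in either genotype.

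Among small-subunit genes, Mrps14 and Mrps12 had the smallest adjusted p in Atg7f/f. Mrps14, a protein of the small subunit's head, was at 13.7 and 16.6 CPM in Atg7f/f oil, 43.6 and 45 in Atg7f/f estradiol, 16.3 and 15.9 in Atg7d/d oil, and 41.9 and 43.0 in Atg7d/d estradiol. The replicates of each group lay close together, and estradiol and oil did not overlap. It changed by 1.55 ± 0.19 (adjusted p 0.00124) and 1.40 ± 0.19 (adjusted p 0.00238). Mrps12, a protein of the decoding centre, was at 33.6 and 30.6 CPM in Atg7f/f oil, 79.6 and 94.8 in Atg7f/f estradiol, 34.8 and 38.8 in Atg7d/d oil, and 81.7 and 87.3 in Atg7d/d estradiol. It changed by 1.44 ± 0.18 (adjusted p 0.00129) and 1.20 ± 0.18 (adjusted p 0.00317).

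Mrps16, needed for assembly of the small subunit, went from 13.9 and 13.8 CPM to 30.3 and 32 in Atg7f/f and from 14.7 and 12.9 to 35.3 and 40.0 in Atg7d/d. Mrps25, a mitochondria-specific protein, went from 22.4 and 17.5 CPM to 47.4 and 59.0 in Atg7f/f and from 21.8 and 21.1 to 53.6 and 61.6 in Atg7d/d. Both rose in each genotype with no overlap between estradiol and oil. Mrps24 changed by 1.15 ± 0.20 in Atg7f/f (16.7 and 20.7 CPM to 38.7 and 44.6), and Mrps34 by 1.34 ± 0.22 in Atg7d/d (14.7 and 15.8 CPM to 38.0 and 39.3). In the other genotype the changes were 0.80 ± 0.20 for Mrps24 and 1.07 ± 0.22 for Mrps34. Those second calls were lost when 1 library was left out, with adjusted p up to 0.117 for Mrps24 (without Atg7d/d oil library 1) and 0.0598 for Mrps34 (without Atg7f/f estradiol library 2).

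The stretches around the RefSeq start of the 2 strongest genes of each subunit are shown because these members moved together. They run from 250 bases before to 30 after the RefSeq transcription start (build GRCm38.p6, written 5′ to 3′ on the gene's strand), and capitals mark a match to the binding letters of NRF1 or of GABP and other ETS factors, regulators long tied to nuclear genes for mitochondrial proteins. Mrpl12 is at chr11:120484387-120484666 (plus strand), Mrpl18 at chr17:12916062-12916341 (minus), Mrps14 at chr1:160194965-160195244 (plus) and Mrps12 at chr7:28741792-28742071 (minus).
Mrpl12: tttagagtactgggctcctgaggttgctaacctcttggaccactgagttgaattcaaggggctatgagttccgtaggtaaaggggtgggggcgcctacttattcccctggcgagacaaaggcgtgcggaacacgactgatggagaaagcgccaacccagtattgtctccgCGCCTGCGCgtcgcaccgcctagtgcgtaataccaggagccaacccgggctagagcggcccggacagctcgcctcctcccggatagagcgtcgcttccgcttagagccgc
Mrpl18: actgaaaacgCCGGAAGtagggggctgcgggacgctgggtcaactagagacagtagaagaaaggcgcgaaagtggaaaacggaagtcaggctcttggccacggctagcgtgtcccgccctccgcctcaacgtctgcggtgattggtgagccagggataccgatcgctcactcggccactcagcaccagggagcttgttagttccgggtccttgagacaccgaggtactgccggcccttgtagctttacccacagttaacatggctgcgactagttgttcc
Mrps14: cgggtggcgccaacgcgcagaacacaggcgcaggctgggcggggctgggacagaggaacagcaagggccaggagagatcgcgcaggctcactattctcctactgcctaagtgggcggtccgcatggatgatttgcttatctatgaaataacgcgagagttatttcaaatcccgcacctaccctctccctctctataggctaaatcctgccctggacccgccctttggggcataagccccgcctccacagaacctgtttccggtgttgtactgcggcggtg
Mrps12: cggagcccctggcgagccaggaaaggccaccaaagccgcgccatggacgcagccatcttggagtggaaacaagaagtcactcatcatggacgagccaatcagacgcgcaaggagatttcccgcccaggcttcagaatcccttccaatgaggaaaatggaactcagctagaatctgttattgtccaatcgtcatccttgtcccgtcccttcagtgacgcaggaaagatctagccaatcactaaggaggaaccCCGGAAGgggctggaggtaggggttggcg

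The RefSeq start of Mrpl18 lies 254 bases inside the gene as GENCODE annotates it (chr17:12911349-12916345, minus strand), so by that annotation its whole stretch lies downstream of the start and within the gene. Mrpl12 holds the NRF1 letters on the opposite strand 80 to 72 bases before the start. Mrpl18 holds the ETS letters 240 to 234 bases before its RefSeq start and Mrps12 at bases 2 to 8, counted from the start. Mrps14 holds none of the motifs searched. Over windows from 250 bases before to 50 after the start, 68 of the 77 members had a RefSeq promoter sequence. On either strand, GCGCANGCG (NRF1) was found in 16 of 68 members (23.5%) and in 12.3% of the windows of tested genes. CCGGAAG (ETS) was in 23 (33.8%, against 16.1%) and AAGATGGCG (YY1) in 8 (11.8%, against 2.79%). Among all 32851 windows of that length the shares were 6.25%, 8.86% and 1.40%. At least 1 of these motifs was in 39 of 68 members (57.4%) and in 27.6% of the windows of tested genes. It was in 29 of 40 members that rose in both genotypes (72.5%) and in 7 of 18 that passed in neither (38.9%), and this difference was not tested. CCGGAAG can share its last letters with AAGATGGCG, so a promoter may count for both, and a match is a description of the sequence.

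The 3 large-subunit genes with the most reads, which is not a comparison of transcript numbers since gene length was not corrected for, were Mrpl33, Mrpl53 and Mrpl52. Mrpl33 was at 142 and 113 CPM in Atg7f/f oil, 246 and 242 in Atg7f/f estradiol, 138 and 110 in Atg7d/d oil, and 241 and 227 in Atg7d/d estradiol, without overlap. It changed by 0.94 ± 0.19 and 0.91 ± 0.19. Mrpl52 changed by 1.20 ± 0.18 and 1.11 ± 0.18 and Mrpl53 by 0.84 ± 0.18 and 0.82 ± 0.18. The Mrpl52 call held in each of the 8 fits that left out 1 library. That of Mrpl53 was lost without Atg7f/f estradiol library 2 (adjusted p 0.0697), and in Atg7d/d the calls of Mrpl33 and Mrpl53 were lost without either estradiol library or oil library 2 (adjusted p up to 0.0794 and 0.0869).

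The fewest reads were those of Mrpl21 and Mrpl15. Mrpl15 was at 1.89 and 3.19 CPM in Atg7f/f oil, 7.96 and 8.45 in Atg7f/f estradiol, 3 and 0.945 in Atg7d/d oil, and 5.94 and 8.41 in Atg7d/d estradiol. It changed by 1.69 ± 0.50 and 1.85 ± 0.52, calls that 5 of 8 fits without 1 library lost in each genotype (adjusted p up to 0.115 and 0.161, in each case without estradiol library 2). Mrpl21 stayed between 2.30 and 4.05 CPM in all libraries (0.43 ± 0.44 and 0.28 ± 0.45). In the small subunit the fewest reads were those of Mrps27 and Mrps22. Their changes in Atg7f/f were 1.46 ± 0.36 and 1.52 ± 0.31, with adjusted p of 0.0941 (Mrps27, without estradiol library 2) and 0.0518 (Mrps22, without estradiol library 1). In Atg7d/d they were 1.23 ± 0.35 and 1.11 ± 0.31, each kept in 2 of 8 such fits. Across the 77 genes, the Spearman correlation of the level in oil with the fold change was -0.45 in Atg7f/f and -0.35 in Atg7d/d. This is a description over genes that share the libraries. The same oil libraries enter both quantities, so noise in them alone pushes the correlation below 0. No relation between level and response can be read from it.

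Of the 20 members that passed in neither genotype, Mrps6 had the most reads of all members. It was at 342 and 264 CPM in Atg7f/f oil, 223 and 263 in Atg7f/f estradiol, 297 and 242 in Atg7d/d oil, and 202 and 229 in Atg7d/d estradiol. Estradiol lay below oil in either genotype, narrowly so, with changes of -0.32 ± 0.20 in each (adjusted p 0.254 and 0.264). Averaged over genotypes, Mrps6 was called lower in the edgeR fit without Atg7f/f oil library 2 (-0.43, adjusted p 0.0272). The Slc5a3 gene, a myo-inositol transporter, lies on the same strand and overlaps Mrps6 (chr16:92058270-92112227, mm10), and it fell by 1.48 on the log2 scale in Atg7f/f (adjusted p 0.002). How reads of overlapping genes were assigned is not stated, so the Mrps6 value is uncertain.

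The S18 family has 3 members in mitochondria, of which Mrps18c is the small subunit's own and Mrps18a was found in the large subunit. Mrps18a was at 50.6 and 28.5 CPM in Atg7f/f oil, 34.5 and 41.8 in Atg7f/f estradiol, 41.6 and 32.1 in Atg7d/d oil, and 34.2 and 47.4 in Atg7d/d estradiol, so that its groups overlapped. Mrps18b was at 41.0 and 21.4 CPM in Atg7f/f oil, 31.6 and 41.2 in Atg7f/f estradiol, 28.1 and 22.2 in Atg7d/d oil, and 29.9 and 30.9 in Atg7d/d estradiol. Neither passed the test (-0.06 ± 0.30 and 0.22 ± 0.30 in Atg7f/f). Mrps18c was at 4.73 and 8.32 CPM in Atg7f/f oil, 17.2 and 16 in Atg7f/f estradiol, 4.11 and 7.56 in Atg7d/d oil, and 21.8 and 14.9 in Atg7d/d estradiol. It rose by 1.35 ± 0.38 (adjusted p 0.0279) and 1.65 ± 0.39 (adjusted p 0.0163). Its call was lost without Atg7f/f oil library 1 or either estradiol library (adjusted p up to 0.116), and in Atg7d/d without estradiol library 1 or oil library 1 (up to 0.124). The differences between these family members were not tested.

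Mrps30, which despite its symbol sits in the large subunit, was at 59.2 and 52.6 CPM in Atg7f/f oil, 57.1 and 69.3 in Atg7f/f estradiol, 54.0 and 40.8 in Atg7d/d oil, and 65.1 and 67.8 in Atg7d/d estradiol. It passed in neither genotype (0.18 ± 0.20 and 0.49 ± 0.20). Mrps36, which is now known as a part of the 2-oxoglutarate dehydrogenase complex, rose by 1.36 ± 0.27 and 1.55 ± 0.27. In Atg7d/d its adjusted p without estradiol library 2 was 0.0502. With members placed by structure, and Mrps36 left out, 39 of 50 large-subunit and 15 of 26 small-subunit genes rose in Atg7f/f, and 32 of 50 and 13 of 26 in Atg7d/d.

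Mrpl24 was singled out after its values were seen, and Mrps28 was named for its fold in Atg7f/f. Mrpl24 was at 88.5 and 86.9 CPM in Atg7f/f oil, 76.7 and 97.3 in Atg7f/f estradiol, 94.0 and 85.6 in Atg7d/d oil, and 75.2 and 87.8 in Atg7d/d estradiol. Its groups overlapped in both genotypes (-0.01 ± 0.18 and -0.14 ± 0.18). Mrps28, the counterpart of bacterial S1, had the largest change among the 77 in Atg7f/f and the widest error. It was at 1.58 and 19.8 CPM in Atg7f/f oil, 71.2 and 31.7 in Atg7f/f estradiol, 8.53 and 15.6 in Atg7d/d oil, and 47.5 and 38.7 in Atg7d/d estradiol. Estradiol lay above oil in both genotypes, but the 2 Atg7f/f oil libraries were far apart. The changes of 2.28 ± 0.79 (adjusted p 0.0569) and 1.83 ± 0.78 (adjusted p 0.115) missed the threshold. With 1 library left out, the Atg7f/f change ran from 1.41 to 4.99.

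**Figure D3:**
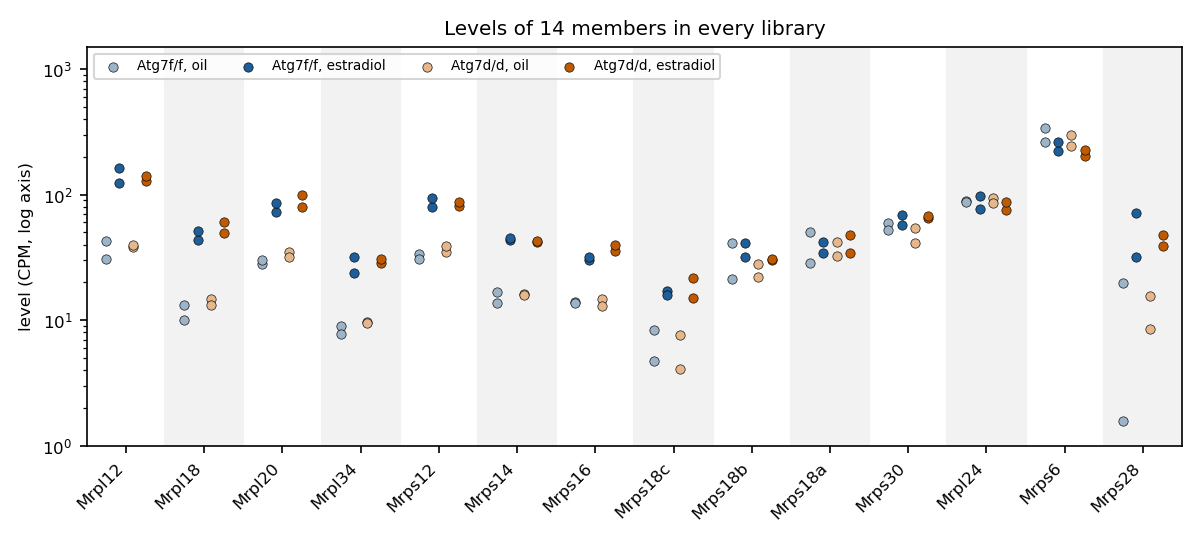
Level in CPM (vertical log axis) of 14 members in every library, with 2 points per group. In Mrpl12 to Mrps18c both estradiol points lie above both oil points in each genotype, Mrps18a and Mrpl24 overlap, and Mrps28 spans 1.58 to 71.2 CPM.

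The remaining members that passed in neither genotype were Mrpl1, Mrpl9, Mrpl21, Mrpl46, Mrpl47, Mrpl50, Mrps2, Mrps5, Mrps7, Mrps9, Mrps23, Mrps31, Mrps33 and Mrps35. All 14 had fold changes above 0 in both genotypes. By origin, 25 of 30 large-subunit genes with a bacterial counterpart rose in Atg7f/f and 19 in Atg7d/d, against 14 and 13 of the 19 that are specific to mitochondria (Mrps30 included). In the small subunit, 10 of 16 genes with a bacterial counterpart rose in Atg7f/f and 9 in Atg7d/d, against 5 and 4 of 9 specific ones. The difference between these classes was not tested.

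Many members lie close to other genes. In the GENCODE annotation, 26 overlap another gene, and for 12 the annotated 3′ end lies inside another protein-coding gene. Without those 12, 48 members rose in Atg7f/f and 41 in Atg7d/d. A head-to-head start within 1000 bases of a gene on the opposite strand was annotated for 23 members, 8 of which are also among those 26. Of those partners, 20 were tested: 5 rose and 4 fell in Atg7f/f, and 6 rose and 2 fell in Atg7d/d. Over all tested genes, 15.8% rose and 14% fell in Atg7f/f, and 13.1% rose and 11.2% fell in Atg7d/d. Partners that fell in Atg7f/f include Klc4 (-0.89) beside Mrpl2 (1.24) and Pnpla7 (-1.38) beside Mrpl41 (1.34), where the member rose. Whether partners change together was not tested, and the named pairs are examples. The partners' median log2 fold change in Atg7f/f was 0.56, and that of the members beside them was 1. Mrpl36 shares its start region with Ndufs6, a complex I subunit (1.67 ± 0.24 and 1.19 ± 0.19 in Atg7f/f), and both rose. Mrpl51 lies beside Ncapd2, a condensin subunit (0.98 ± 0.23 and 1.44), and Mrpl32 beside Psma2, a proteasome subunit (1.17 ± 0.26 and 0.91). Mrps18b lies beside Ppp1r10, which fell by 1.33. The Atg7f/f calls of Mrpl51, Mrpl32 and Mrpl41 were lost without estradiol library 2, and that of Ppp1r10 without estradiol library 1. Whether the calls of Klc4 and Pnpla7 held without 1 library was not examined.

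No member passed the test of a difference between genotypes. In the oil libraries 0 of 77 passed the test (0% of all tested genes), and log2 differences, Atg7d/d minus Atg7f/f, ran from -0.39 to 0.59 with a median of 0.07. The smallest unadjusted p was that of Mrps26, at 10.3 and 13.6 CPM in Atg7f/f oil and 15.5 and 20.3 in Atg7d/d oil (0.59 ± 0.25, p 0.0437, adjusted p 1). It was the only member with an unadjusted p below 0.05, against 2.54% of all tested genes. Next came Mrpl38, at 23.5 and 22.7 CPM against 17.2 and 18.1 (-0.39 ± 0.21, p 0.098), and Mrpl30, at 30.6 and 26.7 CPM against 36.2 and 40.5 (0.42 ± 0.24, p 0.119). The 95% interval of the difference lay within 1 log2 unit of 0, so within a 2-fold change, for 66 members.

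After estradiol, 0 of 77 passed (0% of all tested genes), and 0 had an unadjusted p below 0.05 (3.02% of all tested genes did). Differences ran from -0.40 to 0.27, with a median of 0.02. The smallest p were those of Mrpl16 (43.9 and 48.6 CPM in Atg7f/f, 34.9 and 40.4 in Atg7d/d, -0.29 ± 0.18, p 0.144), Mrpl28 (-0.40 ± 0.26, p 0.164) and Mrps16 (0.27 ± 0.19, p 0.185). For 73 members the 95% interval lay within 1 log2 unit of 0. Averaged over treatments, 0 members passed (0% of all genes) and 0 had an unadjusted p below 0.05, and the smallest p were 0.0848 for Mrps10 (0.35 ± 0.18), 0.0931 for Mrps26 (0.32 ± 0.17) and 0.110 for Mrpl14 (0.23 ± 0.13). DESeq2 and limma-voom also called 0 members in each of these comparisons.

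The interaction, which is the estradiol effect in Atg7d/d minus that in Atg7f/f, gave 0 calls among the members (0% of all tested genes) and 0 unadjusted p below 0.05. The values ran from -0.61 to 0.43, with a median of -0.05. The smallest p were those of Mrps26 (-0.53 ± 0.35, p 0.162), Mrpl30 (-0.52 ± 0.34, p 0.163) and Mrpl38 (0.43 ± 0.29, p 0.173). The interval lay within 1 log2 unit of 0 for 49 members, so for the other 28 a 2-fold difference in the estradiol effect lay within the interval.

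**Figure D4:**
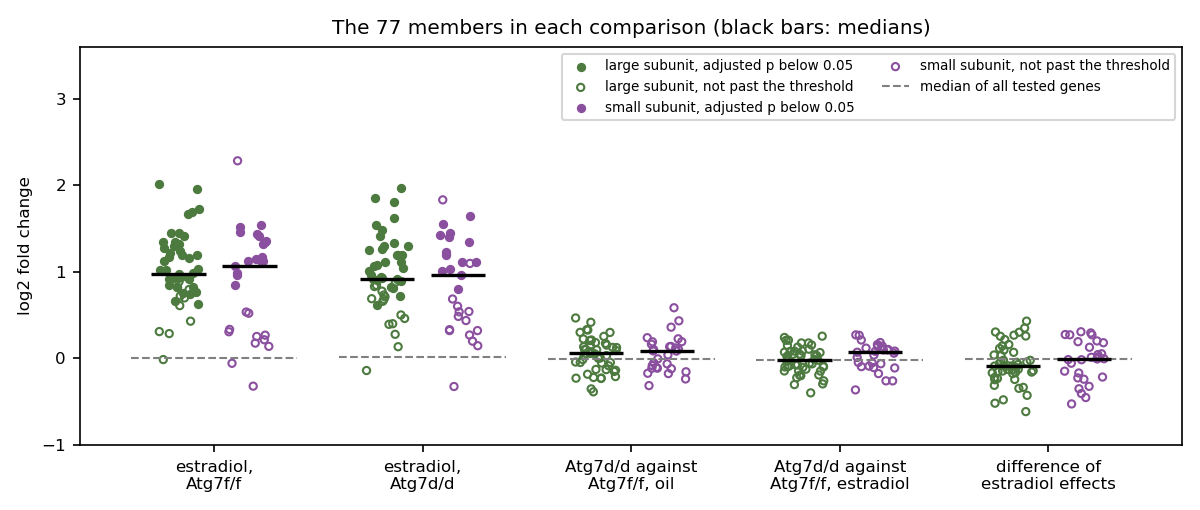
Log2 fold change (vertical axis) of the 77 members in 5 comparisons, by subunit, with filled points past the adjusted p threshold of 0.05, black bars at the medians and dashed lines at the median of all tested genes. The estradiol medians lie near 1 (0.98 and 1.07 in Atg7f/f, 0.92 and 0.97 in Atg7d/d), and no point is filled in the genotype comparisons.

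Of 6 mitochondrial ribosome subunits with other symbols, Chchd1, Ict1 and Aurkaip1 rose in Atg7f/f (1.25 ± 0.21, 1.12 ± 0.24 and 0.96 ± 0.29). In Atg7d/d it was Ict1, Chchd1 and Gadd45gip1 (1.04, 0.84 and 0.66). Ict1, the peptidyl-tRNA hydrolase now called Mrpl58, was at 13.4 ± 2.21 CPM (SD, n = 2) in Atg7f/f oil and 29.2 ± 3.73 after estradiol. Dap3, a GTP-binding subunit, was at 47.0 ± 12.5 and 47.0 ± 0.449 CPM (-0.00 ± 0.22). Apart from Chchd1 in Atg7f/f, each of these calls was lost in at least 1 fit without 1 library, with adjusted p up to 0.0632 for Ict1 and 0.148 for Aurkaip1 in Atg7f/f (without estradiol library 2 and 1).

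Of the factors that assemble the ribosome and modify its RNA, 5 of 28 rose and 1 fell in Atg7f/f (median 0.18), and 2 rose and 1 fell in Atg7d/d (median 0.19). The shares that rose, 17.9% and 7.14%, lay near or below the 15.8% and 13.1% of all tested genes. C1qbp, a matrix protein needed for mitochondrial translation, was at 142 ± 2.59 and 314 ± 51.0 CPM in Atg7f/f (1.15 ± 0.20). Noa1, a GTPase of ribosome assembly, rose by 1.92 ± 0.36 in Atg7f/f and was 0.39 ± 0.34 in Atg7d/d (interaction -1.53 ± 0.50, p 0.013, adjusted p 1). Mpv17l2 rose by 1.05 ± 0.26 in Atg7f/f (adjusted p 0.0889 without estradiol library 2). In Atg7d/d, C1qbp rose by 1.03, Trub2, a pseudouridine synthase, rose by 1.67, and Mtg2, a GTPase of the large subunit, fell by 1.09. Left-out libraries ended these 3 calls, with adjusted p up to 0.0701, 0.124 and 0.0904.

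Of 20 mitochondrial translation factors and partners, 6 rose and 0 fell in Atg7f/f (median 0.68), and 5 rose and 0 fell in Atg7d/d (median 0.70). Slirp, which stabilises mitochondrial mRNAs, rose by 1.03 ± 0.20, the elongation factor Gfm1 by 1.31 ± 0.26 and Tufm by 1.26 ± 0.32 in Atg7f/f. In Atg7d/d the exchange factor Tsfm rose by 2.73 ± 0.58, Gatb by 1.51 ± 0.35 and the deformylase Pdf by 1.10 ± 0.29. The Tufm call was lost without Atg7f/f estradiol library 2 or oil library 2 (adjusted p up to 0.124), and the 3 Atg7d/d calls were lost without Atg7d/d estradiol library 1 or oil library 1 (up to 0.0883, 0.115 and 0.140).

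Genes that replicate, transcribe and process the mitochondrial genome gave 1 call of 17 in each genotype (5.88%, below the share of all tested genes that rose): Hsd17b10, a subunit of mitochondrial RNase P, at 0.77 ± 0.23 in Atg7f/f, and Ssbp1 at 1.30 ± 0.42 in Atg7d/d. Their adjusted p without 1 library reached 0.126 and 0.180. Tfam, which packs mitochondrial DNA, was at 25.5 ± 1.96 CPM in Atg7f/f oil and 25.4 ± 0.783 after estradiol (-0.01 ± 0.19). Among 10 nuclear regulators, Ppargc1a and Nrf1 fell and Esrra rose in both genotypes. Ppargc1a, a coactivator of mitochondrial genes, changed by -1.91 ± 0.46 and -2.42 ± 0.47, Nrf1 by -0.58 ± 0.18 and -0.92 ± 0.18, and Esrra by 0.78 ± 0.26 and 1.01 ± 0.26. In Atg7f/f the calls of Nrf1 (adjusted p 0.0407) and Esrra (0.0459) were lost in all 8 fits without 1 library, and that of Ppargc1a without oil library 1 or either estradiol library (up to 0.105). In Atg7d/d, the call of Ppargc1a was lost without either estradiol library (edgeR adjusted p up to 0.0738), that of Nrf1 without either estradiol library or oil library 2 (up to 0.0936), and that of Esrra without estradiol library 1 or either oil library (up to 0.172).

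Nuclear genes for the respiratory chain, whose mitochondrial subunits these ribosomes make, were also higher, and those for the cytosolic ribosome were mostly not called. Of 76 nuclear genes for respiratory chain subunits, 67 rose in Atg7f/f (median 1.08) and 63 in Atg7d/d (median 0.99), and 0 fell, with Uqcr11 (1.68), Cox7b (1.66) and Atp5k (1.64) called most firmly in Atg7f/f. Of 83 cytosolic ribosomal protein genes, 5 rose and 1 fell in Atg7f/f (6.02% up, median 0.04), and 6 rose and 0 fell in Atg7d/d (7.23% up, median 0.07). The summed cytosolic level was 46923 to 52993 CPM in Atg7f/f oil and 47431 to 53840 CPM after estradiol, so the groups overlapped. None of these lists had a call in the genotype comparisons or the interaction.

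**Figure D5:**
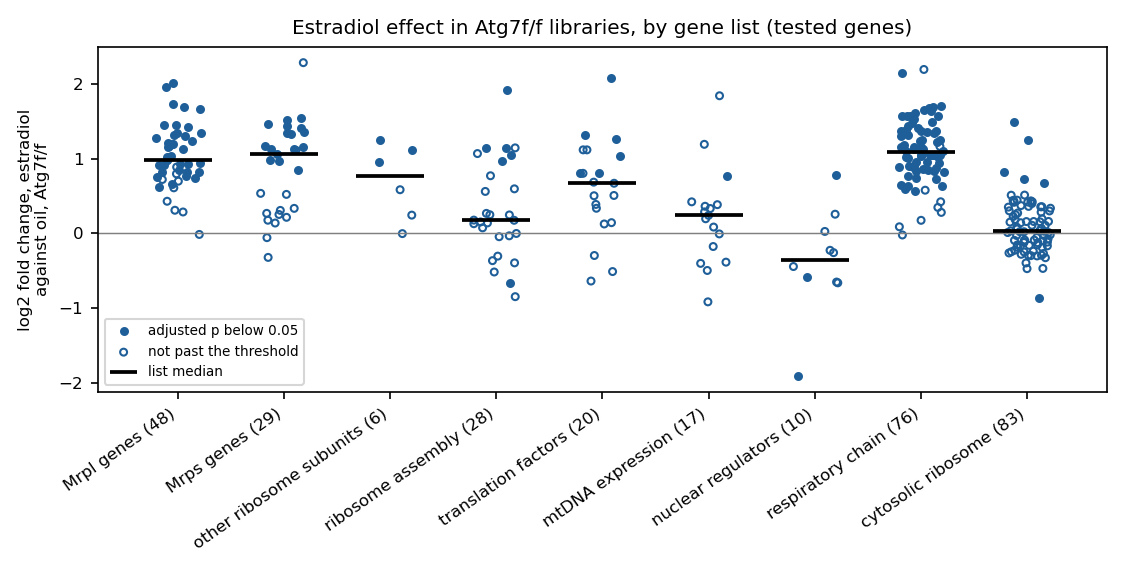
Log2 fold change of estradiol against oil in Atg7f/f (vertical axis) for the tested genes of 9 lists, with the number of genes in brackets; filled points passed the adjusted p threshold of 0.05 and black bars are list medians. The Mrpl (0.98), Mrps (1.07) and respiratory chain (1.08) medians lie near 1, and that of the cytosolic ribosome (0.04) near 0.

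Markers of other cells and of division moved with estradiol too. Of 10 epithelial markers 6 fell in Atg7f/f and 4 in Atg7d/d, and 0 rose. Their summed level was 5953 to 17830 CPM in Atg7f/f oil, 1259 to 2814 in Atg7f/f estradiol, 4693 to 11137 in Atg7d/d oil and 1324 to 1779 in Atg7d/d estradiol. Of 10 fibroblast markers 6 rose and 2 fell in Atg7f/f (1984 to 2422 CPM summed with oil, 5891 to 8408 with estradiol; 2357 to 2938 and 7956 to 8591 in Atg7d/d). Of 7 smooth muscle markers 5 rose in Atg7f/f and 4 in Atg7d/d. Their summed levels were 1508 to 3351 and 6332 to 6505 CPM in Atg7f/f, and 2910 to 3803 and 6128 to 7059 in Atg7d/d. Of 10 cell cycle genes 9 rose in each genotype (89.0 to 122 and 483 to 548 CPM in Atg7f/f, 116 to 136 and 346 to 434 in Atg7d/d). Of 5 erythroid markers (4 globins and Alas2), the 4 globins rose in Atg7f/f and 0 passed in Atg7d/d (medians 1.05 and 0.63). Their summed level was 163 to 199 CPM in Atg7f/f oil, 276 to 495 in Atg7f/f estradiol, 233 to 241 in Atg7d/d oil and 350 to 383 in Atg7d/d estradiol. Of 6 endothelial markers 0 rose and 1 fell in each genotype, and of 7 macrophage markers 1 rose and 1 fell in Atg7f/f and 0 rose and 1 fell in Atg7d/d. No gene of these 7 lists was at 0 in every library, and their part in the result was not tested. The epithelial sum was 17830 CPM in Atg7f/f oil library 1 and 5953 in library 2, and the members' sums in the same libraries were 2229 and 2063 CPM. In Atg7d/d oil the epithelial sums were 11137 and 4693 CPM, beside 2226 and 2094 CPM for the members. With estradiol they were 1259 and 2814 beside 3525 and 3970 CPM in Atg7f/f, and 1324 and 1779 beside 3633 and 3843 CPM in Atg7d/d. The epithelial sum changed along with the treatment, and any link between the sums was not tested.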

How the data were processed

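RNA of 8 libraries (4 groups of 2) was extracted with Trizol, and libraries were made with a Lexogen Quant-Seq kit, per the labels. The authors deposited unnormalized read counts for each symbol. Bowtie2, edgeR and mm10 are named in the submitters' processing notes; which counter, annotation and strand setting were used is not given in the sources used here, so reads of overlapping genes cannot be told apart. Of 35 symbols on several lines the line with the most counts was kept (0.0973% of counts left out); no member was among them.

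Genes were filtered with filterByExpr (minimum count 10, minimum total 15), which left 13347 genes with 99.9% of counts, and scaled by TMM (factors 0.918 to 1.03). CPM values use these factors. One quasi-likelihood model in edgeR 4.0.16 (R 4.3.3) held a mean for each group, with 4 residual and 5.08 prior degrees of freedom and a biological coefficient of variation of 21.8%. P-values were adjusted by Benjamini and Hochberg over all tested genes, at 0.05. Standard errors came from the fold change and its F statistic, and intervals are 95%. The script was tested on simulated data. Alternatives were other scalings and filters, DESeq2 1.42.0, limma-voom (limma 3.58.1), only the groups compared, a replicate block, symbols summed and leaving out each library.

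The members and the gene lists were chosen with earlier results of these data known. Members named with values were up to 5 called genes per subunit and genotype with the smallest adjusted p, those with the most and fewest reads, those with the largest and smallest fold, the S18 family, Mrps30 and Mrps36, and, for genotype comparisons, the 3 with the smallest p. From the other lists, up to 3 called genes per comparison were named. Coordinates come from GENCODE M21 and promoter sequences from RefSeq (GRCm38.p6).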

Additional observations from a re-analysis of the deposited data

How the results depend on the processing

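Under other scalings, filters, tools and models, 40 to 61 members rose with estradiol in Atg7f/f, 42 to 54 in Atg7d/d and 60 to 68 on average. The 61 came from the crossed block described below, which was chosen after seeing the data, and the other fits gave at most 58. With 1 library left out, the counts were 29 to 53, 18 to 55 and 58 to 66; such fits leave 1 group with a single library, which is assumed to vary like the others. In each of these fits 0 members fell in Atg7f/f or Atg7d/d alone. On average Mrps6 was called lower without Atg7f/f oil library 2 (-0.43, adjusted p 0.0272) and with the crossed block described next (-0.32, adjusted p 0.0266). The genotype comparisons and the interaction kept 0 calls. Calls held in every fit for 22 members in Atg7f/f and 16 in Atg7d/d. Of 1056 values recomputed for the named results, 1013 kept their side of the threshold and their direction, 40 lost the call, 3 gained it and 0 reversed. Part of this was fixed in advance, since many named genes were picked by their p-value in these data and summing symbols changes no member's counts. The largest shift from scaling came with library totals, where the median of all genes in Atg7f/f was 0.07 and that of the members 1.06.

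Replicate differences correlated by number between the 2 oil groups (0.49) and between the 2 estradiol groups (0.23), but not between oil and estradiol groups (-0.23 to -0.01). The labels tie no number to a shared animal or batch, and the numbers were not taken as pairs. With a replicate block, 55 members rose in Atg7f/f, 48 in Atg7d/d and 65 on average, and 0 were called in the other comparisons. With the numbers crossed in the estradiol groups, an alternative chosen after seeing the data like that without the 12 covered 3′ ends, the block gave 61 and 53 calls. With 2 libraries per group, no outlier test was possible.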
